A study of Mus musculus with 9 samples.

Results

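Respiratory complex I subunit genes were examined in RNA sequencing libraries of mouse embryos at the 2-cell stage. The genes were taken by symbol alone: every symbol made of Nduf, 1 of the letters a, b, c, s or v and a number, plus Ndufab1. This rule found 37 of the 24454 genes in the deposited count table, and all 37 were among the 16964 genes with enough counts to test. The rule takes in Ndufa4, whose protein was first purified with complex I and is now assigned to cytochrome oxidase, so Ndufa4 was kept apart in the description by structure.

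Complex I, the NADH:ubiquinone oxidoreductase of the mitochondrial inner membrane, takes electrons from NADH, passes them along flavin and iron-sulphur centres to ubiquinone and pumps protons as it does so. Its matrix arm holds the electron path, its membrane arm holds the pumps, and both arms are wrapped in accessory subunits that are needed to build and hold the complex. The membrane core subunits are made in the mitochondrion from its own genome and were not analysed here, and all other subunits come from nuclear genes. The cleaving mouse embryo divides with mitochondria inherited from the oocyte, oxidises pyruvate rather than glucose at first, and at the 2-cell stage degrades maternal transcripts while its own genome becomes active.

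Embryos of the ICR mouse strain were cultured from the zygote to the 2-cell stage in 3 groups of 3 libraries, and each library pooled 3 embryos. Control embryos carried no label of an addition, the second group received a load of high glucose, and the third received high glucose together with what the labels name ZGW rat serum. The labels do not say what ZGW is, which glucose concentration was used, when it was given or whether the control and high glucose media held serum, so ZGW and rat serum cannot be told apart. The submitters call the libraries of a group biological replicates. Whether they came from separate matings is not given, so p-values measure the spread between these libraries. In such bulk libraries, fewer cells of a type and less RNA per cell cannot be told apart.

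Library totals lay between 11934924 and 16916343 counts, and libraries of a group differed by far more than sampling noise. Control replicate 1 and ZGW serum replicate 3 stood apart from the rest, at the opposite ends of the first principal component. Oocyte and early embryo markers summed to 19426 to 27502 normalised counts relative to the library total (CPM) in control, 13380 to 18270 under high glucose and 16952 to 42595 with ZGW serum, with all 11 of 11 detected in each group. The 11 markers of the 2-cell stage summed to 8778 to 16328, 13218 to 20198 and 4038 to 10422 CPM in the same order, and all 11 were detected in each group. Of 12 cumulus and granulosa markers none reached a mean of 10 CPM in any group, and the list summed to 9.63 to 22.6 CPM in control, 4.40 to 8.24 under high glucose and 3.63 to 6.85 with ZGW serum, with Ptx3 and Fst at 0 in control and Fshr at 0 with ZGW serum. Of 10 blood cell markers, 9, 7 and 9 were detected and summed to 237 to 367, 86.4 to 309 and 324 to 531 CPM. Among the markers at 0 were Ptprc in control and Alas2 and Ptprc under high glucose. Hba-a1 and Hba-a2 had identical values in each library, from 40.3 to 262 CPM, and made up most of these sums. The same signal thus enters each sum more than once, while the other globin genes, Hbb-bs and Hbb-bt, did not exceed 0.326 CPM. Of 12 stroma and epithelium markers, 10, 10 and 8 were detected and summed to 79.0 to 168, 44.2 to 82.0 and 16.5 to 56.0 CPM, with Col3a1 and Krt5 at 0 in control, Dcn and Lum under high glucose, and Col1a2, Dcn, Acta2 and Krt5 with ZGW serum. Epcam and Pecam1 together held most of each stroma and epithelium sum. Epcam was at 52.3 to 107 CPM in control, 31.1 to 48.1 under high glucose and 1.16 to 23.8 with ZGW serum. Dppa3 held most of each oocyte sum. It was at 13735 to 21702 CPM in control, 7720 to 12471 under high glucose and 10746 to 32869 with ZGW serum. Oocyte and blood marker sums were on average lowest under high glucose and highest with ZGW serum. The share of counts on complex I genes had the same order. The means of Dppa3, Oosp1, Nlrp5 and Zar1 were lowest under high glucose and highest with ZGW serum. Those of Zp1, Zp2, Zp3, Gdf9, Bmp15, Ooep and Npm2 did not run in that order. The 2-cell stage sums ran on average in the opposite order. They were highest under high glucose with a mean of 16418 CPM and lowest with ZGW serum at 7689, with control at 12927. The sums of control libraries overlapped those of both other groups. The means of Zscan4c, Zscan4d, Zscan4f, Usp17lc, Usp17le, Gm5662, Ubtfl1 and Zfp352 ran in this opposite order, while those of Tcstv1, Tcstv3 and Tdpoz4 did not. The part of these lists in the results below was not tested.

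The 37 genes were spread over 15 chromosomes, with Ndufa1 and Ndufb11 on the X chromosome. None was at 0 in any library and none shared its counts in all 9 libraries with another gene. Their median mean level was 22.8 CPM, against 7.56 CPM over all genes tested, and 30 of the 37 lay above 10 CPM. Scatter between libraries of a group, given as edgeR's biological coefficient of variation, had a median of 0.478 over the complex I genes, from 0.242 for Ndufa4 to 1.07, and a median of 0.679 over all genes tested. In 12 of the 37 genes the highest library of at least 1 group exceeded the lowest by more than 5-fold. Ndufc2, a small subunit of the membrane arm, was the widest, at 4.52, 6.26 and 0.146 CPM in the control libraries and 10.7, 0.231 and 3.34 CPM under high glucose, so a group mean says little about it.

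Levels between genes were compared per kilobase of transcript, as CPM divided by transcript length. In control embryos Ndufa4 was the highest at 629 ± 51.8 CPM per kilobase (SD, n = 3). Ndufb6, an accessory subunit of the outer end of the membrane arm, followed at 459.7 ± 48.5, and the control libraries of these genes did not overlap. Next came Ndufa11, an accessory subunit at the joint of the membrane arm, at 235 ± 112, the X-linked Ndufb11 at 204 ± 14.4 and Ndufa2, a small matrix arm subunit, at 189 ± 29.8 CPM per kilobase, and these 3 overlapped one another. At the other end stood 2 of the 7 nuclear core subunits of the matrix arm, the iron-sulphur proteins Ndufs7 at 1.88 ± 1.86 and Ndufs1 at 0.537 ± 0.572 CPM per kilobase. The highest of the 37 levels was 1173 times the lowest.

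**Figure D1:**
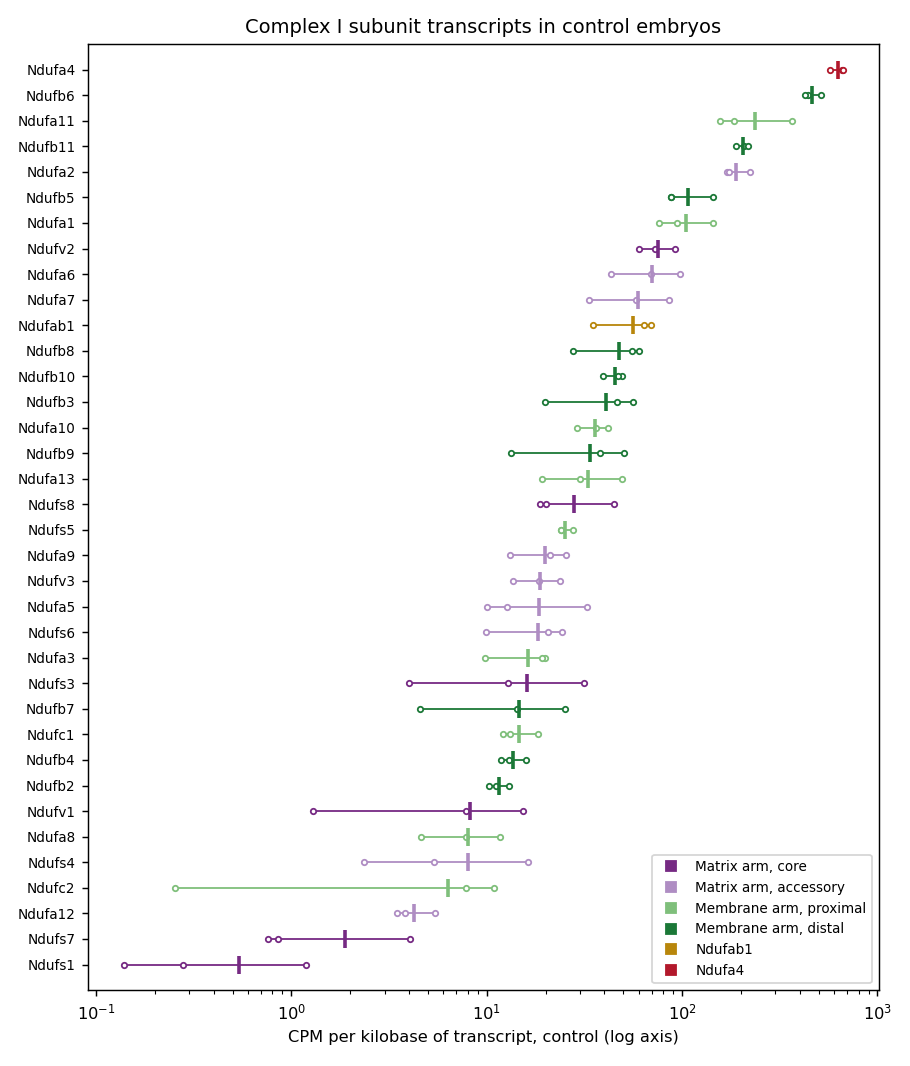
Level of 36 of the 37 complex I subunit transcripts in control embryos, in CPM per kilobase of transcript on a log axis. Circles are the 3 control libraries, the bar joins the lowest and highest and the tick is the mean; colours give the place in the complex. Ndufa4 and Ndufb6 head the order, and the core subunits Ndufs7 and Ndufs1 close it.

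Promoter sequence was available from RefSeq (GRCm38.p6) for 33 of the 37 genes, as windows from 250 bases before to 50 bases after a transcription start. Those of the 4 genes below are shown because Ndufb6 and Ndufa4 had the lowest p-values in the comparisons with high glucose, Ndufa11 holds the full site of NRF1, the nuclear respiratory factor known to bind respiratory gene promoters, and Ndufs6 holds the YY1 motif that was the most frequent in complex I promoters relative to other genes. The windows are chr4:40279372-40279671 (minus strand), chr6:11907401-11907700 (minus strand), chr17:56717512-56717811 (plus strand) and chr13:73328433-73328732 (minus strand), each printed 5′ to 3′ on the strand of the gene. Capitals mark letters of the NRF1, ETS family and YY1 motifs on either strand.
Ndufb6: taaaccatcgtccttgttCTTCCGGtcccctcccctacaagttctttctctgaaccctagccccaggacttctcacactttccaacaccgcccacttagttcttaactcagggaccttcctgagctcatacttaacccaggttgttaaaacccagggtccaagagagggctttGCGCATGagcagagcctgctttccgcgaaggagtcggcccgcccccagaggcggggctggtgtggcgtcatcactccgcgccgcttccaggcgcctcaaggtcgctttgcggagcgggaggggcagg
Ndufa4: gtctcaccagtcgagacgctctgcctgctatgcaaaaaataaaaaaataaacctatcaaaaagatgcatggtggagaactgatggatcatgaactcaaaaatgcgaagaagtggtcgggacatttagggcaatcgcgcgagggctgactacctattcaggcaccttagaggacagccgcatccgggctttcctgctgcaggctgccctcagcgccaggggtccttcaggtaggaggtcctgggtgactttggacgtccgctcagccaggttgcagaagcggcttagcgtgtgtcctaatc
Ndufa11: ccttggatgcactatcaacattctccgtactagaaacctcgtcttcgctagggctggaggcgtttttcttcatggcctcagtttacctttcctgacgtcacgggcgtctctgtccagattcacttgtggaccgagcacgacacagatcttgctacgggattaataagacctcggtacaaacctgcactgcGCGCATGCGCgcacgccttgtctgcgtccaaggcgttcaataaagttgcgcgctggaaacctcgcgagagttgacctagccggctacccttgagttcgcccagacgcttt
Ndufs6: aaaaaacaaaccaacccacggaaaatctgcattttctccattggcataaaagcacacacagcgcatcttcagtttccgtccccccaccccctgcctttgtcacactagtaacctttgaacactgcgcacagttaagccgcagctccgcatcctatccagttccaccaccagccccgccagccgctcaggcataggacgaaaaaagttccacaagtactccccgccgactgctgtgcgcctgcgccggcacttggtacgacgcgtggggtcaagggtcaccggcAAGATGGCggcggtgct
In Ndufb6 the capitals are an ETS family match and an NRF1 short motif, both on the reverse strand. In Ndufa11 they are a palindrome in which 2 NRF1 short motifs on opposite strands overlap and form the full site. In Ndufs6 the capitals lie just downstream of the start. The Ndufa4 window holds none of these letters.

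Motifs were searched as exact letters on both strands in all windows of a gene. The YY1 motif AAGATGGC, bound by a factor known to control genes of respiration, was found in 7 of the 33 complex I genes (21.2%) and in 4.5% of the 12299 tested genes with a window. Those 7 were Ndufa3, Ndufa9, Ndufb8, Ndufc1, Ndufs4, Ndufs6 and Ndufs7. The NRF1 short motif CATGCGC, which is part of the full site, was found in 5 (15.2%) against 6.87% of tested genes, and the full site GCGCATGCGC in 1 (3.03%) against 1.9%. The other motifs were found in a smaller or a like share of complex I genes: the ETS family motif CCGGAAG in 4 (12.1% against 16.3%), the SP family motif GGGCGG in 15 (45.5% against 59.5%), CCAAT in 10 (30.3% against 43.1%) and TATAAA in 4 (12.1% against 10.7%). Median GC content was 59.0% both in complex I windows and in all windows. A match describes letters only, and no test of the shares was made.

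High glucose against control was the comparison that asks what culture with high glucose does to these transcripts. Complex I genes were mostly lower under high glucose: 29 of 37 had a negative log2 fold change, against 51.0% of all genes tested, and their median log2 fold change was -0.57, against -0.02 over all genes. The genes of the distal membrane arm, the outer end of the proton-pumping arm, stood lower in 10 of 10 cases. No single gene passed the test. With edgeR's quasi-likelihood test and Benjamini-Hochberg adjustment over the 16964 genes, 0 of the 37 were called, and the same 0.0% of all genes. At an unadjusted p under 0.05 edgeR had 5 lower (13.5%, against 3.5% of all genes) and 1 higher (2.70%, against 3.88%). DESeq2 called 1, Ndufb6, against 0.743% of the genes to which it gave an adjusted p, and limma-voom called 0 (0.0% of all genes). Control and high glucose libraries did not overlap in 9 genes that were lower (24.3%, against 6.91% of all genes) and in 1 that was higher (2.70%, against 6.84%). Without control replicate 1 and ZGW serum replicate 3, the libraries that stood apart, the median was -0.65 and again 8 of the 37 were higher. With the trend of transcript length over all genes removed, the median was -0.20 and 13 were higher.

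The share of all counts that fell on the 37 genes was taken straight from the counts. It was 0.187%, 0.210% and 0.159% in the control libraries, 0.113%, 0.141% and 0.115% in high glucose and 0.197%, 0.209% and 0.188% in ZGW serum libraries. The high glucose libraries were all below the others, and control and ZGW serum libraries overlapped. The means were 0.185% ± 0.0252, 0.123% ± 0.0156 and 0.198% ± 0.0106 (SD, n = 3 libraries each). Ndufa4 alone held between 13.2% and 25.4% of these counts, with its highest part in ZGW serum replicate 3. Without Ndufa4 the mean shares were 0.157% in control, 0.104% under high glucose and 0.154% with ZGW serum.

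**Figure D2:**
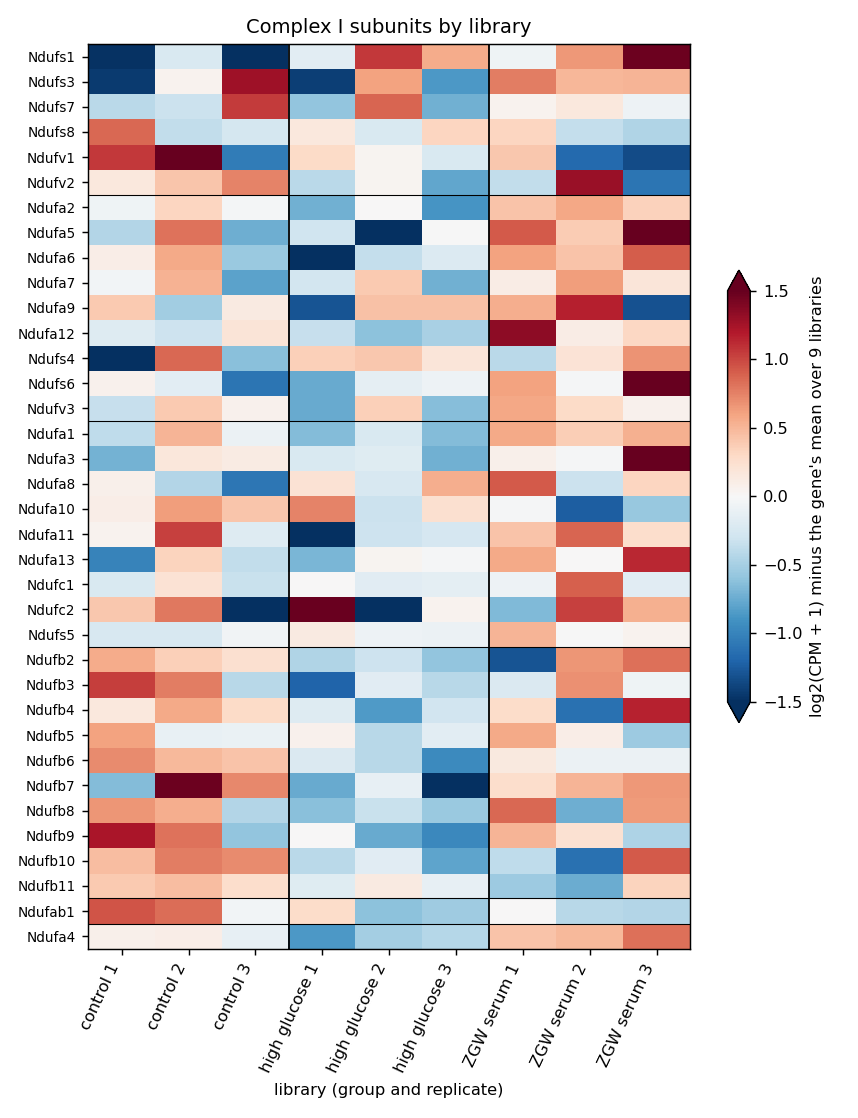
Level of 36 of the 37 complex I genes in each library, as log2(CPM + 1) minus the mean of that gene over the 9 libraries; colours saturate at the ends of the scale, and lines separate the groups and, from top to bottom, the matrix arm core, matrix arm accessory, proximal and distal membrane arm subunits, Ndufab1 and Ndufa4. The distal membrane arm rows are mostly blue under high glucose, while the core rows differ from library to library within a group.

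In the distal membrane arm, whose nuclear subunits here are the Ndufb proteins, Ndufb6 (chromosome 4, 40270591 to 40279421, minus strand) had the lowest p-value of the 37. It was counted at 293, 250.5 and 241 CPM in the control libraries, 153, 134 and 91.7 in high glucose and 197, 168 and 168 in ZGW serum libraries. Every high glucose library was below every other library, and the ZGW serum libraries lay between the groups without touching either. The log2 fold change was -1.05 ± 0.26 (SE; unadjusted p = 0.00185, edgeR adjusted p = 0.627), and DESeq2 gave an adjusted p of 0.0204. Its exons overlap Smim27 on the opposite strand over 39.0% of their bases, and the strand setting of the counts is not given in the sources used here, so reads of the pair cannot be told apart there.

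Ndufb3 (chromosome 1, 58586384 to 58595964, plus strand), another distal accessory subunit, was at 43.0, 35.5 and 15.1 CPM in control, 8.32, 18.0 and 15.0 in high glucose and 17.4, 33.3 and 19.6 in ZGW serum libraries. Control replicate 3 lay among the high glucose libraries, so the groups overlapped, and the log2 fold change was -1.18 ± 0.52 (edgeR adjusted p = 0.672). The other 8 distal genes also had lower means under high glucose, from -0.33 in Ndufb5 to -1.86 in Ndufb7 on the log2 scale. Libraries did not overlap in Ndufb2, Ndufb4, Ndufb6, Ndufb10 and Ndufb11. The median of the 10 was -0.96, and it ran from -1.14 to -0.86 with 10 of 10 lower over the 17 alternative fits. These fits share most of their libraries, and some leave out only a ZGW serum library. The trend of transcript length was not removed for this group alone, so its part in these values was not tested.

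The 7 nuclear core subunits make up the path of the electrons through the matrix arm, and 6 of the 7 were lower under high glucose. Their libraries scattered widely. Ndufv1, the flavin and NADH site, was at 11.9, 23.6 and 1.97 CPM in control, 6.51, 5.31 and 4.24 in high glucose and 7.18, 1.76 and 1.42 in ZGW serum libraries. Its partner Ndufv2, an iron-sulphur protein, stood at 79.3, 95.4 and 120.0 CPM in control, at 53.2, 73.4 and 40.9 in high glucose and at 54.5, 175 and 32.6 in ZGW serum libraries. Ndufv2 was the core gene whose high glucose libraries all lay below control (-0.82 ± 0.54, edgeR adjusted p = 0.786), while Ndufv1 overlapped (-1.22 ± 0.93).

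Ndufs1 (chromosome 1, 63143596 to 63176833, minus strand), which holds several of the iron-sulphur clusters, was the exception. It was at 0.730, 3.13 and 0.365 CPM in control, 3.33, 9.08 and 6.12 in high glucose and 3.63, 6.54 and 12.4 in ZGW serum libraries. Every library of both treated groups was above control, and the log2 fold change of high glucose over control was 2.13 ± 0.95 (unadjusted p = 0.0472, edgeR adjusted p = 0.672). The level is low, at 5 to 42 counts in the control libraries. The log2 fold change was 3.48 without control replicate 2 and 1.64 without control replicate 3. Ino80dos, a gene on the opposite strand that overlaps 9.3% of the exon bases of Ndufs1, had between 42.4% and 900.0% of the counts of Ndufs1, and its part in the value was not tested.

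Of the remaining core subunits, those described here differed by less than the scatter of their libraries. Ndufs3, a core subunit without a cluster of its own, stood at 4.16, 13.5 and 32.9 CPM in control, at 4.24, 20.3 and 6.69 in high glucose and at 22.8, 18.8 and 18.9 in ZGW serum libraries. The groups overlapped, with a log2 fold change of -0.69 ± 0.77 for high glucose over control. Ndufs7, which holds the last iron-sulphur cluster before ubiquinone, was at 0.657, 0.746 and 3.51 CPM in control, 0.454, 3.00 and 0.326 in high glucose and 1.26, 1.44 and 1.07 in ZGW serum libraries. Ndufs8, another iron-sulphur protein, stood at 43.9, 18.3 and 19.7 CPM in control, at 26.6, 20.2 and 30.1 in high glucose and at 30.1, 18.3 and 17.2 in ZGW serum libraries. The log2 fold changes of high glucose over control were -0.37 ± 1.04 in Ndufs7 and -0.09 ± 0.46 in Ndufs8. Leaving out single libraries turned the sign of Ndufs3 (without control replicate 3), of Ndufs7 (without control replicate 3, high glucose replicate 1 or high glucose replicate 3) and of Ndufs8 (without control replicate 1 or high glucose replicate 2).

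Among the accessory subunits of the matrix arm 6 of 9 were lower under high glucose, and among those of the proximal membrane arm 5 of 9. The proximal genes had a median log2 fold change of -0.0022 and ranged from -1.05 in Ndufa11 to 0.68 in Ndufa8. Their count of lower genes was 3 without control replicate 2 and 7 without control replicate 3. Ndufa11 (chromosome 17, 56717767 to 56722141, plus strand) was at 101, 198 and 85.0 CPM in control, 25.5, 78.4 and 81.6 in high glucose and 131, 178 and 117 in ZGW serum libraries. Its highest high glucose library was just below its lowest control library, and the log2 fold change was -1.05 ± 0.46 (edgeR adjusted p = 0.672). Without control replicate 2 it was -0.58, and without high glucose replicate 1 it was -0.68. In the matrix arm the libraries of Ndufa12, an accessory subunit at 2.16 to 4.53 CPM in these groups, did not overlap.

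Ndufab1 (chromosome 7, 122085403 to 122101886, minus strand) codes for the mitochondrial acyl carrier protein, which sits in complex I and also serves fatty acid synthesis in the mitochondrion. It was at 169, 157 and 85.2 CPM in control, 106, 56.8 and 60.3 in high glucose and 88.1, 65.4 and 64.3 in ZGW serum libraries. Control replicate 3 lay within the range of the treated libraries, so the groups overlapped. The log2 fold change was -0.88 ± 0.36 for high glucose over control (unadjusted p = 0.0311, edgeR adjusted p = 0.652) and -0.03 ± 0.35 for ZGW serum over high glucose. It was thus at like mean levels in both treated groups, of 74.3 and 72.6 CPM, below the control mean of 137 CPM.

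Ndufa4 (chromosome 6, 11900292 to 11907497, minus strand), the cytochrome oxidase subunit, was the most evenly counted of the 37 genes. It was at 301, 305 and 262 CPM in control, 157, 201 and 213 in high glucose and 386, 402 and 508 in ZGW serum libraries. The 3 groups did not overlap: high glucose was lowest, control in between and ZGW serum highest. The log2 fold change of high glucose over control was -0.61 ± 0.23 (unadjusted p = 0.0243, edgeR adjusted p = 0.627).

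**Figure D3:**
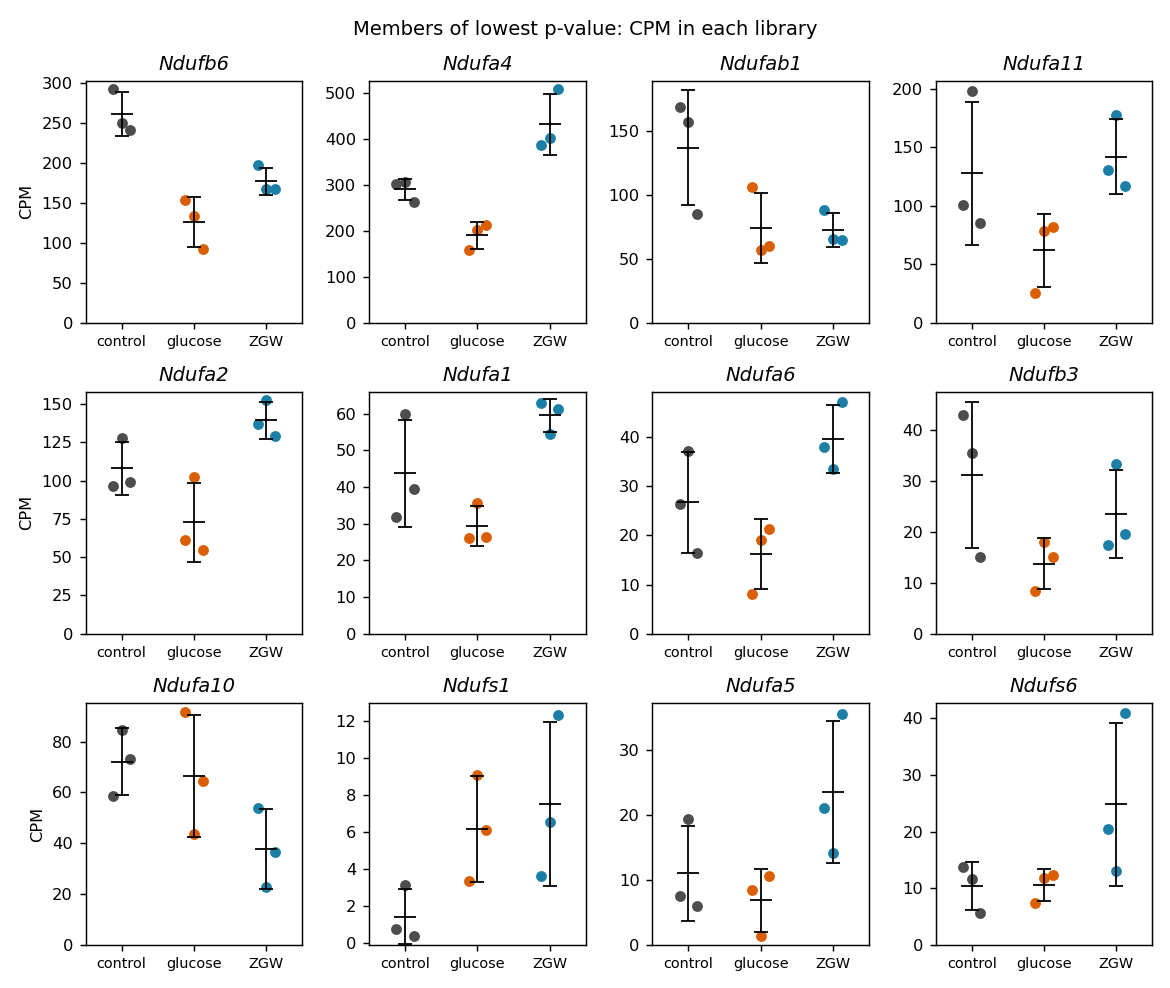
CPM in each library for the 12 complex I genes of lowest p-value in any comparison, with the group mean and SD (n = 3 libraries) as black bars; each panel has its own scale, and control, high glucose (glucose) and high glucose with ZGW rat serum (ZGW) run from left to right. Ndufb6 and Ndufa4 separate all 3 groups, and Ndufs1 is lowest in control.

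ZGW serum with high glucose against high glucose alone compares the groups whose labels both name high glucose. Whether their glucose load was the same, and whether the medium of high glucose alone held serum, is not given. The high glucose libraries serve in this comparison as well as in the one before, so the pair cannot be read as independent of each other. Complex I genes were mostly higher with ZGW serum: 28 of 37, against 50.1% of all genes tested, with a median log2 fold change of 0.62 against 0.00 over all genes. With edgeR 0 of the 37 were called (0.0% of all genes). At an unadjusted p under 0.05 edgeR had 6 higher (16.2%, against 3.8%) and 0 lower (against 4.89%). DESeq2 called 1, Ndufa4, against 1.5% of the genes to which it gave an adjusted p, and limma-voom called 0 (0.0% of all genes). Libraries did not overlap in 11 genes that were higher (29.7%, against 9.08%) and in 0 that were lower (against 8.26%). Without the same pair of libraries the median was 0.56 and the count of higher genes again 28. With the trend of transcript length removed, the median was 0.36 and 25 were higher.

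Ndufa4 had the lowest p-value, with a log2 fold change of 1.18 ± 0.23 (unadjusted p = 3.84e-04, edgeR adjusted p = 0.370; DESeq2 adjusted p = 0.00134). The lowest ZGW serum library, at 386 CPM, was above the highest high glucose library, at 213 CPM. Over the edgeR and limma-voom alternatives its adjusted p lay between 0.304 and 0.851.

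The accessory subunits of the matrix arm, which clasp the electron path, were higher in 8 of 9. Libraries did not overlap in 5 of the 9 (55.6%, against 9.08% of all genes). Ndufa2, a small subunit with a thioredoxin-like fold, was at 96.8, 128 and 99.4 CPM in control, 61.4, 102 and 54.6 in high glucose and 137, 152 and 129 in ZGW serum libraries. All ZGW serum libraries were above all others, and the log2 fold change over high glucose was 0.94 ± 0.30 (unadjusted p = 0.00917, edgeR adjusted p = 0.465). Ndufa6 (chromosome 15, 82350140 to 82354322, minus strand), which binds the acyl carrier protein in the matrix arm, was at 26.5, 37.2 and 16.5 CPM in control, 8.02, 19.1 and 21.3 in high glucose and 38.0, 33.6 and 47.2 in ZGW serum libraries. Its ZGW serum libraries were all above high glucose, by 1.29 ± 0.47 on the log2 scale (edgeR adjusted p = 0.512), and overlapped control.

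Ndufa5 (chromosome 6, 24518666 to 24528013, minus strand), another matrix arm subunit, was lower in counts and wider in scatter. It was at 7.59, 19.4 and 5.99 CPM in control, 8.48, 1.39 and 10.6 in high glucose and 21.1, 14.1 and 35.5 in ZGW serum libraries. The ZGW serum libraries were above all high glucose libraries, at a log2 fold change of 1.79 ± 0.78 (edgeR adjusted p = 0.574), and high glucose replicate 2 was far below the others of its group. Ndufs6 (chromosome 13, 73319838 to 73328542, minus strand), a zinc-binding subunit whose promoter is printed above, was at 13.8, 11.7 and 5.63 CPM in control, 7.34, 11.9 and 12.4 in high glucose and 20.5, 13.0 and 40.9 in ZGW serum libraries. Its log2 fold change over high glucose was 1.23 ± 0.58 (edgeR adjusted p = 0.584), with ZGW serum replicate 3 well above the other 2. Ndufa12 was the other accessory gene of this arm without overlap, at 1.46, and Ndufs4 the one that was lower, at -0.10.

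In the proximal membrane arm 7 of 9 were higher. Ndufa1 (chromosome X, 37187588 to 37191163, minus strand), an X-linked subunit known to be needed for assembly, was at 31.9, 60.0 and 39.4 CPM in control, 26.2, 35.6 and 26.3 in high glucose and 62.7, 54.5 and 61.2 in ZGW serum libraries. Every ZGW serum library was above every high glucose library, and control overlapped both. The log2 fold change was 1.02 ± 0.34 (unadjusted p = 0.0124, edgeR adjusted p = 0.476). Ndufa11 had a log2 fold change of 1.20 ± 0.47 (edgeR adjusted p = 0.533) without overlap, and Ndufa3, a small membrane subunit, of 1.18, also without overlap. Ndufa10 went the other way, at -0.82 ± 0.40 with overlapping libraries.

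In the distal membrane arm 9 of 10 were higher with ZGW serum, with a median log2 fold change of 0.74. Ndufb6 and Ndufb7 did not overlap (20.0%, against 9.08% of all genes). For Ndufb6 the log2 fold change was 0.49 ± 0.26 (edgeR adjusted p = 0.620). The exception was Ndufb11, at -0.19. The nuclear core subunits split, 3 higher and 4 lower, and none of the 7 was without overlap (against 9.08% of all genes higher and 8.26% lower). Their log2 fold changes ran from -0.63 ± 0.93 in Ndufv1 to 0.95 ± 0.77 in Ndufs3. Ndufs1 was at 0.28 ± 0.90, a value that turned negative without high glucose replicate 1 or without ZGW serum replicate 3, and Ndufv2 at 0.65 ± 0.54 turned negative without ZGW serum replicate 2. Whether core and accessory subunits differ in this comparison was not tested.

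ZGW serum with high glucose against control was the third comparison, and it asks how far embryos given both stood from control embryos. Here 22 of 37 genes were higher, against 50.02% of all genes, and the median log2 fold change was 0.26. That median was 0.03 without control replicate 3 and -0.06 without ZGW serum replicate 2, so it gives no direction for the 37 genes together. With edgeR 0 of 37 were called (0.0% of all genes). At an unadjusted p under 0.05 edgeR had 2 higher (5.41%, against 4.21%) and 2 lower (5.41%, against 5.65%), which is near the background. DESeq2 called 0, against 2.11% of the genes to which it gave an adjusted p, and limma-voom called 0, against 0.00589% of all genes. Libraries did not overlap in 4 that were higher (10.8%, against 9.02%) and 2 that were lower (5.41%, against 7.3%). Without the pair of libraries that stood apart the median was 0.17, with 23 higher.

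By structure the values went in different directions. The matrix arm accessory subunits were higher in 9 of 9, from 0.27 in Ndufv3 to 1.26 in Ndufs6 on the log2 scale, and the proximal membrane arm in 8 of 9. The distal membrane arm was lower in 8 of 10, from -0.62 to 0.08, and the core subunits in 5 of 7. Over all fits the count of lower distal genes ran from 6 to 10, with medians from -0.49 to -0.13. For the core subunits it ran from 4 to 5, with medians from -0.54 to -0.03. For the proximal arm the count of higher genes was 5 without ZGW serum replicate 2 and 6 without control replicate 3. No test of a difference between the structural groups was made.

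The genes of lowest p-value were Ndufab1 (-0.92 ± 0.36, edgeR adjusted p = 0.456), Ndufs1 (2.41 ± 0.96, adjusted p = 0.462) and Ndufa4 (0.58 ± 0.23, adjusted p = 0.466). Ndufa10 (chromosome 1, 92439010 to 92473860, minus strand), a proximal membrane arm subunit related to nucleoside kinases, was at 58.5, 84.8 and 73.2 CPM in control, 91.6, 43.6 and 64.5 in high glucose and 54.1, 22.7 and 36.5 in ZGW serum libraries. Its ZGW serum libraries were all below control (-0.94 ± 0.40, edgeR adjusted p = 0.483), while high glucose overlapped both. Ndufb6 was below control, at -0.56 ± 0.26 on the log2 scale without overlap (edgeR adjusted p = 0.508). Ndufs6 stood at 1.26 ± 0.58 (edgeR adjusted p = 0.513), with overlapping libraries, and at 0.71 without ZGW serum replicate 3. Ndufs1 was at 3.76 without control replicate 2, and ran from 1.86 to 3.76 over the fits with 1 library left out.

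**Figure D4:**
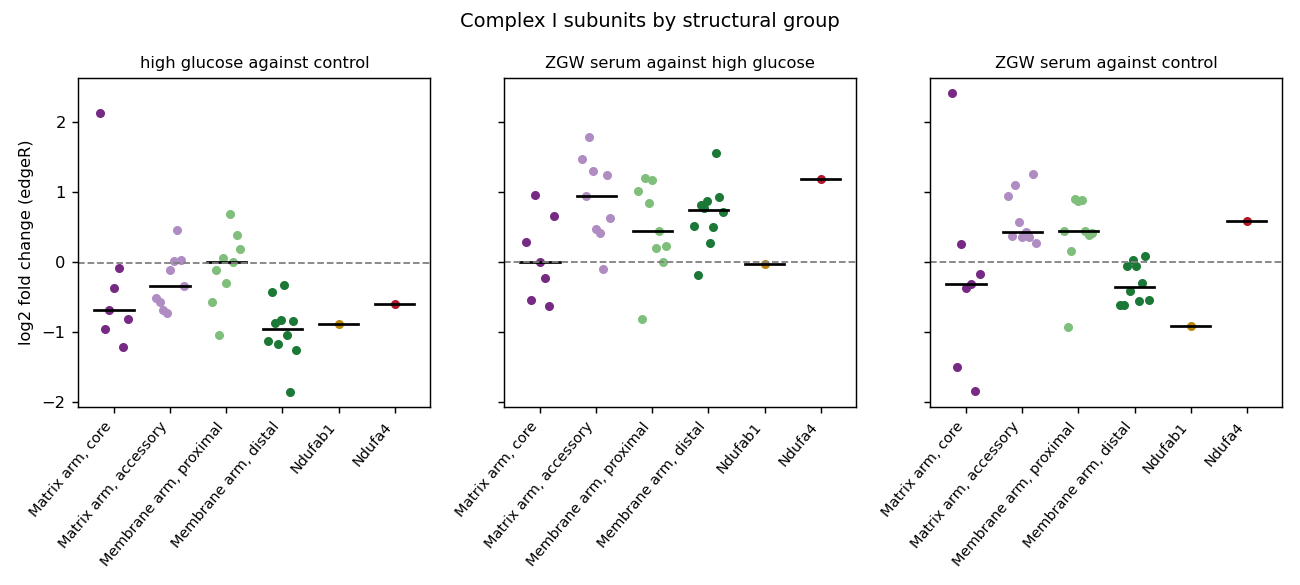
Log2 fold change of each complex I gene in the 3 comparisons, by place in the complex; points are genes, black bars are medians of the group and the dashed line is the median of all genes tested. The 10 distal membrane arm genes all lie below 0 for high glucose against control, and the 9 matrix arm accessory genes all lie above 0 for ZGW serum against control.

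Transcript length and shared sequence were examined because these genes are short. Their median transcript length was 782 bases (382 to 2625), against 2349 bases over all genes tested, of which 10.5% were shorter than 782. Median GC content was 52.2% against 50.03%. Across all 16277 tested genes with a length, Spearman's rho between length and log2 fold change was 0.18 for high glucose over control and -0.11 for ZGW serum over high glucose. Within the 37 genes it was 0.04 and -0.56. These rho values describe genes that share libraries and are not independent. Removing the trend of length moved the complex I medians of these comparisons towards 0, to the values given with each above. With the trend of GC content removed the medians were -0.54 for high glucose over control and 0.48 for ZGW serum over high glucose. The part of transcript length in these differences was not tested further.

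**Figure D5:**
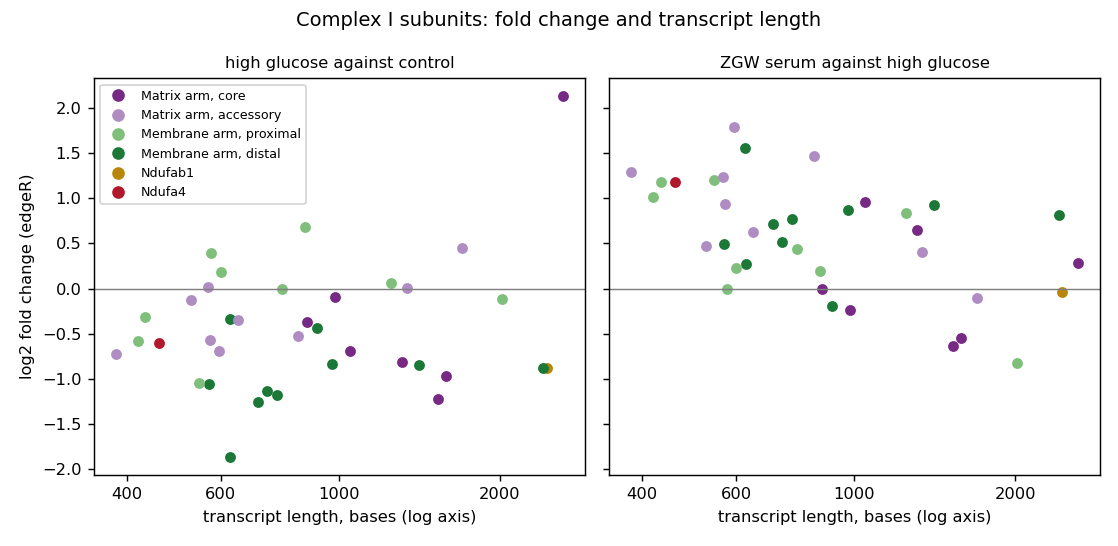
Log2 fold change of the 37 genes against transcript length (log axis) for high glucose against control and for ZGW serum against high glucose, coloured by place in the complex. With ZGW serum the shorter genes have the higher values (Spearman's rho -0.56 over 37 genes), while for high glucose rho is 0.04.

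Parts of 10 genes recur elsewhere: at least 10% of their 50-base stretches occur in transcripts of another gene, so the deposited counts may split or share reads there. Among these were Ndufs3 at 39.7%, Ndufb4 at 37.0%, Ndufb6 at 34.1% and Ndufs5 at 31.1%. BC002163, a near copy of Ndufs5, had 59.8% to 65.9% of the counts of Ndufs5 in each library, so these counts are uncertain between the pair. Of the 27 genes under 10%, 21 were lower under high glucose (median -0.57) and 20 were higher with ZGW serum over high glucose (median 0.62). In the 15 genes with neither shared stretches nor overlapping exons, 12 were lower (median -0.58) and 9 were higher (median 0.52) in those comparisons.

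Assembly factors, which build the complex but do not stay in it, were read from a list of 19, of which 16 were tested. In high glucose over control 12 of the 16 were lower, with a median log2 fold change of -0.31, and 2 of them (12.5%, against 3.5% of all genes lower) had an unadjusted edgeR p under 0.05. Timmdc1, which helps to build the membrane arm, was at 2.21 ± 0.703 CPM under high glucose and 9.64 ± 3.75 in control (SD, n = 3; log2 fold change -2.12 ± 0.86, edgeR adjusted p = 0.653). Ndufaf3, which helps to build the matrix arm, was at 3.43 ± 0.142 against 10.9 ± 3.32 CPM (-1.66 ± 0.74, adjusted p = 0.672). With ZGW serum over high glucose 10 of 16 were higher, and Ecsit, an assembly factor of the membrane arm, was at 27.3 ± 5.05 against 11.8 ± 7.26 CPM (edgeR adjusted p = 0.615). With ZGW serum Timmdc1 was at 1.36 ± 1.21 CPM.

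Of 12 regulators of respiratory genes 8 were lower and 4 higher under high glucose than in control, and 7 were higher and 5 lower with ZGW serum than under high glucose. Ppargc1b, a coactivator of the PGC-1 family, was at 2.76 ± 1.43 CPM under high glucose and 0.343 ± 0.329 in control (SD, n = 3; log2 fold change 2.97 ± 1.17, edgeR adjusted p = 0.647). With ZGW serum it was at 4.42 ± 1.84 CPM, a log2 fold change over control of 3.65 ± 1.20 (edgeR adjusted p = 0.409). Pprc1, a coactivator of NRF1, was at 25.0 ± 10.1 CPM under high glucose and 49.8 ± 13.2 in control (SD, n = 3; edgeR adjusted p = 0.656). Nrf1 itself was at 11.5 ± 8.17 CPM with ZGW serum and 25.6 ± 8.82 under high glucose (edgeR adjusted p = 0.615).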

How the data were processed

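The 9 libraries came as 1 table in which the authors deposited an unnormalised whole-number count for each gene symbol. Per the submitters' processing notes, reads were handled with Trim Galore and the mm10 build. How reads were aligned and counted, with what strand setting, and how repeats were treated is not given in the sources used. The complex I genes, the gene lists and the tests were chosen with earlier results of these data known.

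Groups and replicate numbers came from the labels. Genes were kept by filterByExpr (minimum count 10) and compared in edgeR 4.0.16 under R 4.3.3 by the quasi-likelihood F test, scaled by TMM, with robust dispersions and all 9 libraries in 1 model of 3 group means. Benjamini-Hochberg adjustment ran over 16964 genes, with a threshold of 0.05, and the common biological coefficient of variation was 0.731. CPM values are counts scaled with the TMM factors, and per-kilobase levels use the median length of protein-coding GENCODE transcripts of GRCm38. The edgeR fit was tested on simulated counts for high glucose against control only.

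The alternatives tried were DESeq2 1.42.0, limma-voom (limma 3.58.1), RLE scaling, no filter, a filter of 10 counts in 6 libraries, fits of the compared groups alone, a replicate block, each library left out, and trends of length or GC content removed. Counts within structural groups under the alternatives were added after the data were seen. Values in every library are given for nuclear core subunits, Ndufab1, Ndufa4 and the 6 genes of lowest p-value per comparison, and of other lists the 2 genes of lowest p-value per comparison may be named. Ndufc2, Ndufa12 and the other subunits named as an end of a range, as an exception or as without overlap were chosen after their values were seen. The single values of 1 core subunit and 1 blood marker are not reported here; both enter the counts and medians.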

Additional observations from a re-analysis of the deposited data

How the results depend on the processing

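No complex I gene was called under any edgeR or limma-voom alternative, and DESeq2 called Ndufb6 in high glucose over control and Ndufa4 in ZGW serum over high glucose. Over all genes edgeR called 0 in each comparison, with 659 genes higher and 594 lower at an unadjusted p under 0.05 in high glucose over control, 644 and 829 in ZGW serum over high glucose and 714 and 959 in ZGW serum over control. DESeq2 called 122, 241 and 333 genes in that order, and in the third comparison limma-voom, the fit without a filter and the stricter filter called 1 each. Leaving out 1 library gave 0 in each comparison. The median log2 fold change of the complex I genes moved to -0.20 and the count of higher genes to 13 in high glucose over control with the trend of length removed, and the median to 0.36 in ZGW serum over high glucose; the cause was not tested. With 1 library left out the medians ran from -0.68 to -0.40, from 0.46 to 0.82 and from -0.06 to 0.33, and the counts of higher genes from 6 to 11, from 27 to 29 and from 18 to 23. The third median reversed, to -0.058, without ZGW serum replicate 2. The share of counts without Ndufa4, the most counted gene, was 0.157%, 0.104% and 0.154% in control, high glucose and ZGW serum. Of the 306 alternative values for the genes of lowest p-value 0 reversed. Those genes were chosen by p-value in the same libraries, so their kept signs were close to fixed by the choice. Removal of length or GC trends was not among the 306. Of 27 values of core subunits, Ndufab1 and Ndufa4, 11 changed sign in at least 1 alternative. The difference between these counts cannot be read as a result.

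Between same-numbered libraries, deviations from the group mean had correlations from -0.0065 to 0.104. Differently numbered libraries were not compared in this way, so whether the numbers mark a shared mating or day was not tested. With a replicate block edgeR called 0 genes in each comparison, the medians were -0.59, 0.55 and 0.26, and 8, 31 and 21 complex I genes were higher. At common scatter this wide, 3 libraries a group limit what single genes can show.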

Other observations

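The other respiratory complexes were read from lists of their nuclear subunits. In high glucose over control 9 of 9 subunits of complex III, 9 of 10 of cytochrome oxidase and 13 of 16 of ATP synthase were lower, with medians of -0.40, -0.78 and -0.57 on the log2 scale against -0.02 over all genes, while 3 of 4 of complex II were higher. Cox8a, a small subunit of cytochrome oxidase, was at 236 ± 21.4 CPM under high glucose and 530 ± 161 in control (SD, n = 3; log2 fold change -1.17 ± 0.30, edgeR adjusted p = 0.627). With ZGW serum over high glucose 8 of 9, 9 of 10 and 14 of 16 of the same lists were higher, with medians of 0.79, 0.90 and 0.59. Cox7a2, another small cytochrome oxidase subunit, was at 764 ± 199 CPM with ZGW serum and 271 ± 32.5 under high glucose (log2 fold change 1.49 ± 0.27, edgeR adjusted p = 0.37). At an unadjusted edgeR p under 0.05, 4 of the 10 cytochrome oxidase genes were lower in the first comparison (40%, against 3.5% of all genes) and 7 were higher in the second (70%, against 3.8%), with the high glucose libraries shared between both.

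Genes of other ubiquinone reductases and NADH shuttles, listed together with the transhydrogenase gene Nnt, mostly had the opposite direction. Of 14 tested, 11 were higher under high glucose than in control (median 0.59) and 12 were lower with ZGW serum than under high glucose (median -0.46). Mdh1, the cytosolic malate dehydrogenase, was at 80.4 ± 24.0 CPM under high glucose and 36.7 ± 6.90 in control (SD, n = 3; edgeR adjusted p = 0.627). Nnt, the proton-driven transhydrogenase that makes NADPH from NADH, was at 21.9 ± 14.0 CPM with ZGW serum and 100.5 ± 39.4 under high glucose (log2 fold change -2.20 ± 0.75, edgeR adjusted p = 0.486). Genes of mitochondrial iron-sulphur cluster assembly were lower in 9 of 14 in high glucose over control and higher in 8 of 14 in ZGW serum over high glucose, with medians of -0.31 and 0.06.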
